A study of Sus scrofa with 12 samples.

Results

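The genes described here encode proteins that lie between the fibres of skeletal muscle and are not collagens: proteoglycans, adhesive and matricellular glycoproteins, elastic fibre proteins, matrix-degrading enzymes and their inhibitors, with a pair of fibroblast surface genes and 3 genes that mark tendon cells. The 35 genes were taken by name from the 28224 genes annotated on the pig chromosomes, by a list and not by a threshold on their values, and the list was drawn up with earlier results of these data known. RNA was sequenced from the longissimus dorsi, the long muscle of the loin, of 12 purebred Iberian castrated males fattened outdoors on acorns and grass, with 1 library per pig. The H group comprised 6 pigs with an extreme high breeding value for intramuscular fat (IMF), and the L group 6 pigs with an extreme low one. Per the labels, IMF was 11.9 ± 1.25% in the H pigs and 1.98 ± 0.262% in the L pigs (SD, n = 6 each). The study's methods give a higher mean for the L group than these labels do. Per the same methods the pigs were not siblings of each other and came from several fattening and slaughter batches. The batch and sequencing lane of each pig are not given in the sources used here, so they cannot be told apart from single pigs. The tissue was whole muscle and not sorted cells, and the values are those of a mixture. In such bulk samples fewer cells of a type and less RNA per cell cannot be told apart.

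Muscle fibres are bound together by layers of connective tissue that run on into the tendon. Fibroblasts secrete collagen fibrils there, small leucine-rich proteoglycans coat the fibrils and set their width, and fibronectin, tenascins and thrombospondins link the matrix to cells. Elastic fibres are built from an elastin core on a scaffold of fibrillin microfibrils, and lysyl oxidases cross-link both elastin and collagen. Intramuscular fat cells develop inside these same layers, which is why the matrix is of interest in pigs that differ in IMF.

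Expression was measured as FPKM, sequenced fragments relative to transcript length and to all mapped fragments of the library, summed over the transcripts assembled at a gene and scaled between libraries. FPKM is corrected for length, so that levels of different genes can be compared where each was assembled whole. The coverage in the files came to 9.88 to 17.62 gigabases per library. Libraries held 30535 (L3) to 44609 (H4) transcripts. The summed FPKM of 5 muscle fibre markers was 23561 to 34939 in the 12 libraries. TNNC2, TNNT3, MYLPF and MYBPC1 were high in all 12, while CKM, the muscle creatine kinase, was 1403 to 8212 FPKM in 10 pigs and listed at 0 in H4 and L2. A 0 in these files can thus stand at a gene that muscle expresses strongly, and a gene at 0 is described here only as listed at 0. The summed FPKM of 7 adipocyte markers was 104 to 203 in H pigs and 75.3 to 129 in L pigs. Each library was a different pig, so that p-values set the difference between groups against the spread between pigs. That spread includes any differences between batches, lanes and libraries.

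All 35 genes were above 0 in at least 1 library and 30 in all 12. COMP, TNMD, SCX, MKX and POSTN were listed at 0 in at least 1 pig, which here means that no assembled transcript was assigned to the gene. SPARC, a calcium-binding protein that chaperones collagen, had the highest level with a mean of 105 ± 40.3 FPKM (SD, n = 12). DCN, encoding decorin, the main proteoglycan on collagen fibrils, followed with 95.1 ± 35.3 FPKM. These levels differed by less than their spread between pigs. After them came THBS4 (38.9 ± 27.4), TIMP3 (28.6 ± 6.03), FN1 (25.0 ± 12.2), TNXB (24.2 ± 7.90) and LUM (21.5 ± 8.34), where the difference between neighbours was under the larger of their SDs. FPKM was summed over 2 to 8 assembled transcripts per library for TNXB, 2 to 5 for FN1, 2 for DCN and 1 to 2 for SPARC and THBS4. None of these genes had a transcript with an annotated intron chain, so they were not shown to be assembled whole. A sum over pieces of a gene can exceed the level of the whole transcript, so their places in this order are uncertain. POSTN, SCX and MKX were the lowest of the 35. POSTN encodes periostin, a glycoprotein of growing and injured connective tissue, and its level was 0 to 2.25 FPKM in these adult muscles.

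The comparison of H with L pigs asks whether these matrix genes differ in expression between pigs of 1 population at opposite extremes of breeding value for IMF. After the filter on low values (a mean of at least 0.5 FPKM in a group), 33 of the 35 genes were tested, SCX and MKX being too low. In limma's moderated test on log2(FPKM + 0.5), with Benjamini-Hochberg adjustment over all 12409 genes tested, 0 of the 33 passed an adjusted p under 0.1, against 0.00806% of all genes tested. At an unadjusted p under 0.05, 1 gene was higher in H (3.92% of all genes tested) and 0 were lower (3.36% of all genes tested), 1 of 33 in all against 7.28%. That gene was FBLN5, and it was also the only member under 0.05 in the exact permutation test over pigs. In 0 of the 33 did the H and L values not overlap (0.556% of all genes tested). The mean of log2(FPKM + 0.5) was higher in H for 21 genes and lower for 12, where 50.5% of all genes tested were higher in H. Counts of genes with a higher or lower mean refer to this scale throughout, and the mean of FPKM itself can differ in direction. The median log2 fold change (H minus L) was 0.12 for the 33 genes and 0.00 for all genes tested. With pig L5 left out the median came to 0.30, and with pig H4 left out to 0.02.

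**Figure D1:**
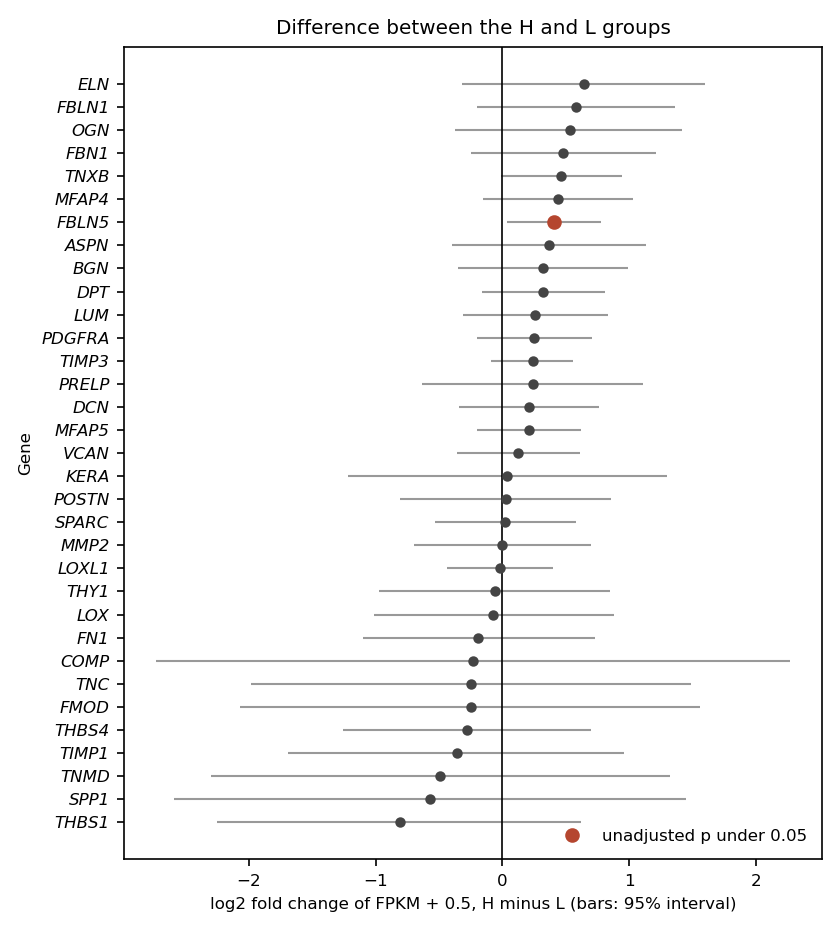
Log2 fold change of FPKM + 0.5 (x axis, H minus L, points) with its 95% interval from limma (bars) for the 33 genes tested, in order of size on the y axis. Intervals reach across 0 for all but FBLN5 (red), and those of COMP, SPP1, FMOD and TNMD are several log2 units wide.

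Among the 8 small leucine-rich proteoglycans, 7 had a higher mean of log2(FPKM + 0.5) in H and 1 a lower one (median log2 fold change 0.25). None of these 8 passed an unadjusted p under 0.05. By mean FPKM, KERA (1.77 in H, 1.88 in L) and PRELP (5.47 in H, 5.48 in L) were also slightly lower in H. The FPKM of decorin (DCN) in H1 to H6 was 112, 80.5, 107, 184, 71.7 and 66.1, and in L1 to L6 it was 78.0, 72.7, 66.2, 82.1, 137 and 83.3. The highest pigs were H4 in one group and L5 in the other, and the groups overlapped over nearly their whole range. The log2 fold change was 0.21 (SE 0.25, limma adjusted p = 0.87). LUM, encoding lumican, a keratan sulphate proteoglycan that limits fibril width, lies beside DCN on chromosome 5 and was 13.0 to 42.7 FPKM in H and 14.6 to 25.4 FPKM in L. BGN, encoding biglycan, the nearest relative of decorin, was 7.82 to 24.5 FPKM over the 12 pigs.

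The remaining proteoglycans of this family differed more from pig to pig. FMOD encodes fibromodulin, which binds collagen in tendon and guides its cross-linking. Its FPKM in H1 to H6 was 2.70, 1.26, 21.5, 8.14, 1.14 and 2.26, and in L1 to L6 it was 4.11, 2.44, 1.84, 2.63, 54.8 and 2.02. Pig H3 in one group and L5 in the other stood far above the rest, and the other L pigs were at 4.11 FPKM or less. The log2 fold change was -0.25 (SE 0.84, limma adjusted p = 0.956), and it turned to 0.45 without L5 and was -0.74 without H3. KERA encodes keratocan, a keratan sulphate proteoglycan known from the cornea, and was 7.52 FPKM in L5 and 5.80 FPKM in H3 against 0.375 to 2.17 FPKM in the other 10 pigs. PRELP, which anchors basement membranes to connective tissue, was 16.1 FPKM in L5, 8.21 in H3 and 8.17 in H4, and 1.82 to 4.87 FPKM elsewhere. OGN (osteoglycin) and ASPN (asporin) are neighbours on chromosome 3, and both had H3, H4 and L5 as their highest pigs. OGN was 13.3 to 15.1 FPKM in those 3 pigs, and 3.17 to 8.93 FPKM in the other 9. ASPN was 4.96 to 5.82 FPKM in them and 1.35 to 2.53 FPKM in the other 9.

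The positions of these genes form 3 clusters in the Sscrofa11.1 genome. DCN (chr5:91678601-91713925), LUM (chr5:91748871-91756381) and KERA (chr5:91794317-91802362) lie next to each other on the plus strand. FMOD (chr9:64062995-64073853, minus strand) and PRELP (chr9:64190978-64207008, plus strand) are close together, as are OGN (chr3:42116521-42135940) and ASPN (chr3:42165553-42192902), both on the minus strand. FMOD and PRELP had L5, H3 and H4 as their highest pigs, and OGN and ASPN the same 3. On chromosome 5 the pigs differed between neighbours. KERA was highest in L5 and H3, whereas LUM, which lies between KERA and DCN, was highest in H4 with 42.7 FPKM and was 15.5 FPKM in L5.

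VCAN encodes versican, a large chondroitin sulphate proteoglycan of loose connective tissue, and was 1.61 to 3.77 FPKM in H and 1.15 to 3.11 FPKM in L (log2 fold change 0.12, SE 0.22, limma adjusted p = 0.914). A pair of its exons encode the stretches to which the sugar chains are attached, and they are used or skipped by alternative splicing. The longer one, of 5238 bases, was in 88.4 ± 18.5% of the FPKM of transcripts across this place in H and 93.6 ± 15.8% in L (SD, n = 6 each, exact permutation p = 0.727). It was in 100% in 9 pigs, and in 58.1% in H2, 72.3% in H4 and 61.4% in L2. With so few pigs below 100% the permutation test could not fall under 0.05 in any arrangement, so it cannot decide on a difference. The shorter one, of 2940 bases, was assembled in H4 alone, where it was in 27.7% of the FPKM, and VCAN itself was among the 3 highest in that pig.

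FN1 encodes fibronectin, the glycoprotein that carries integrin binding sites and on which new matrix is laid down. Its FPKM was 7.72 to 42.8 with a median of 20.8 in H, and 10.8 to 41.4 with a median of 23.5 in L. The highest pigs were H4, L5 and L1 and the lowest was H2, so that the range over pigs was 5.54-fold while the groups overlapped. The log2 fold change was -0.19 (SE 0.42, limma adjusted p = 0.934). FN1 was assembled as 2 to 5 pieces in a library and its FPKM is their sum. Averaged instead over its annotated exons, the log2 fold change was 0.12.

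Fibronectin has 2 alternatively spliced exons, known as extra domains A and B, each of which adds 1 type III repeat to the protein. They are left out of fibronectin made by the liver and are known from embryonic and healing tissue. The annotation holds 1 FN1 transcript. In all 12 libraries the assembled transcripts skipped both exons, with 6.48 to 42.8 FPKM of skipping transcripts per pig, and transcripts that include either exon were listed at 0 in every pig. Cufflinks leaves out transcripts that make up a small share of a locus, so a low share of inclusion could not be seen. Both exons are printed with 10 intron bases on each side, on the minus strand of chromosome 15 in Sscrofa11.1 and read 5′ to 3′ as transcribed, with the splice site bases of the introns in capitals. Extra domain A is the exon of 270 bases, at chr15:117677930-117678219 with its flanks, and extra domain B the exon of 273 bases, at chr15:117689275-117689567. The skipping junctions are shown as 15 bases on each side, with the downstream exon in capitals, because these are the sequences that the assembled RNA carried.
FN1 extra domain A exon: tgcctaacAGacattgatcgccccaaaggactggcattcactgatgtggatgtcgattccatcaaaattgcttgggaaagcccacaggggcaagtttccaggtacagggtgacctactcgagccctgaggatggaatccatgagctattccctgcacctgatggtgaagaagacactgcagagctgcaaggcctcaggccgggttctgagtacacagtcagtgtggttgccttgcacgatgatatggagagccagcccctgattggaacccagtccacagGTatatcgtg
FN1 extra domain B exon: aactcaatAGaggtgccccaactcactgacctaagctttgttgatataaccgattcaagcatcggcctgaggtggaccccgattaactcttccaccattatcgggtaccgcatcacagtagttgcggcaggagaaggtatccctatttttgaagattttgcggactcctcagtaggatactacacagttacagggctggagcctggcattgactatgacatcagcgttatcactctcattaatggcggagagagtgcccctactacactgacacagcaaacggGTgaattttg
FN1 junction without extra domain A: agacagcggtaaccaCCATTCCTGCACCAA
FN1 junction without extra domain B: ataccatcatcccagCTGTCCCTCCTCCCA
Each of these junctions was present in the assembled transcripts of 12 of 12 libraries.

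The FPKM of SPARC in H1 to H6 was 76.8, 94.0, 101, 184, 92.3 and 85.2, and in L1 to L6 it was 90.7, 82.0, 84.6, 95.2, 196 and 80.7. One pig of each group stood alone at the top, H4 with 184 FPKM and L5 with 196 FPKM, and no other pig was above 101. The log2 fold change was 0.02 (SE 0.26, limma adjusted p = 0.992). TNXB encodes tenascin X, a glycoprotein that spaces collagen fibrils in muscle and skin, and was 16.7 to 39.0 FPKM with a median of 28.3 in H and 14.2 to 27.3 FPKM with a median of 19.6 in L. H1, H3, H4 and H6 were above every L pig. Its log2 fold change was 0.46 (SE 0.22, limma adjusted p = 0.687, exact permutation p = 0.0844). TNXB was assembled as 2 to 8 pieces in a library, none with an annotated intron chain, and its FPKM is their sum. With FPKM averaged over its annotated exons, the log2 fold change was 0.36. Exons of TNXB share 299 bases with CYP21A2 on the other strand and 162 with ATF6B on the same strand, 1.91% and 1.03% of its exonic length. MFAP4 and THBS4 likewise share 4.32% and 1.31% of theirs with a gene on the other strand. DPT, encoding dermatopontin, a small protein that binds decorin, was 5.71 to 16.2 FPKM in H and 6.59 to 10 FPKM in L (log2 fold change 0.32, SE 0.22, limma adjusted p = 0.774).

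The thrombospondins bind calcium, collagen and growth factors. THBS4 is abundant in tendon and at its junction with muscle fibres. Its FPKM in H1 to H6 was 23.5, 18.7, 75.9, 39.1, 14.8 and 35, and in L1 to L6 it was 48.7, 22.0, 29.1, 20.9, 108 and 31.2. H3 and L5 were again highest, and the log2 fold change was -0.28 (SE 0.45, limma adjusted p = 0.903). THBS1, which can activate latent TGF-beta, was 27.7 FPKM in H3, 28.8 FPKM in L5 and 22.2 FPKM in L3, and 1.55 to 6.15 FPKM in the other 9 pigs. Its log2 fold change was -0.81 (SE 0.66, limma adjusted p = 0.798) and was -1.31 without H3, the one alternative in which a member was lower in H at an unadjusted p under 0.05. COMP, cartilage oligomeric matrix protein, is the thrombospondin of cartilage and tendon. It was 20.2 FPKM in H3 and 27.3 FPKM in L5, 0.221 FPKM in H1, 0.264 in L3 and 0.418 in L4, and listed at 0 in the other 7 pigs. No fold change of COMP is informative, since 1 pig in each group carried nearly all of its signal.

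TNMD, encoding tenomodulin, a membrane protein of mature tendon cells, was 4.11 FPKM in H3 and 12.5 FPKM in L5. It was 0.402 FPKM in L1 and 0.270 in L6, and listed at 0 in the other 8 pigs. SCX, the transcription factor scleraxis that specifies tendon progenitors, was 2.14 FPKM in H3 and 1.10 FPKM in L5, and was listed at 0 in the other 10. MKX, the tendon homeobox factor mohawk, was 1.45 FPKM in both H3 and L5 and 0.179 FPKM in H4, and was listed at 0 in the other 9. The 3 tendon genes therefore had the same 2 pigs at the top, 1 from each group. In the group comparison TNMD had a log2 fold change of -0.49 (SE 0.83, limma adjusted p = 0.909), which was 0.24 without L5 and -1.03 without H3.

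**Figure D2:**
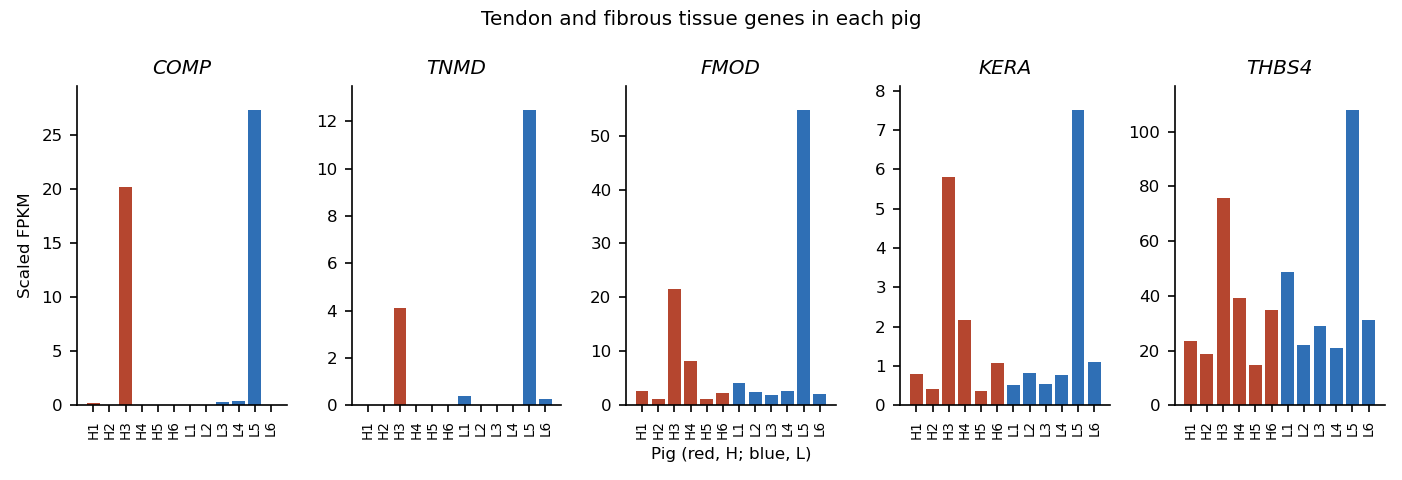
Scaled FPKM (y axis, from 0, own scale in each panel) of COMP, TNMD, FMOD, KERA and THBS4 in each of the 12 pigs (x axis, 1 bar per pig, red H and blue L). In every panel the tallest bar is L5 and the next is H3, which for COMP are 27.3 and 20.2 FPKM.

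H3 and L5 were the 2 highest pigs for 9 of the 35 genes: FMOD, PRELP, KERA, COMP, THBS1, THBS4, TNMD, SCX and MKX. Over all genes tested, which leave out SCX and MKX, this pair was highest for 1.77%. Of 9 collagens, 3 had the same 2 pigs highest. They were COL1A1 (113 FPKM in H3, 255 FPKM in L5 and 14.2 to 85.8 FPKM elsewhere) and COL1A2 (94.9 FPKM in H3, 174 FPKM in L5 and 13.4 to 80.5 FPKM elsewhere), and COL12A1, which is rich in tendon (8.64 FPKM in H3, 19.2 FPKM in L5 and 1.09 to 4.14 FPKM elsewhere). The other 6 had another pair on top, among them the fibril collagens COL3A1 (H4 and H3), COL5A1 (H4 and H6) and COL5A2 (H1 and H2). CILP2, a cartilage matrix protein, was 2.69 FPKM in H3 and 10.1 FPKM in L5 and at most 0.463 FPKM elsewhere. These collagens and CILP2 were chosen after their values were seen. Of 6 cartilage and bone markers the sum was 0 to 1.53 FPKM over the pigs. COL2A1, the collagen of cartilage, was 0.522 FPKM in H3 and 1.11 FPKM in L5 and listed at 0 elsewhere, and ACAN, its large proteoglycan, was 0.419 FPKM in L5 alone. SOX9 was 0.861 FPKM in H3, 0.786 in L3, 0.609 in H4, 0.306 in H1 and 0.247 in H5, and was listed at 0 elsewhere, L5 included. BGLAP was 0.673 FPKM in L1 alone. IBSP and COL10A1 were listed at 0 in every pig. Whether tendon or fascia was part of the piece of muscle taken was not tested. Without H3 and L5, a choice made after seeing the data, 31 genes were tested, COMP and TNMD being too low. Their median log2 fold change was 0.22, and ELN and FBLN5 had an unadjusted p under 0.05, both higher in H. Of all 12390 genes tested without this pair, 557 were higher in H at this level.

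The promoters of COMP and TNMD are printed because no other tested genes of the set were so nearly limited to 2 pigs. Scleraxis belongs to the basic helix-loop-helix factors, which bind E-boxes, CANNTG. The window of 250 bases before the annotated start was searched. CANNTG is its own reverse complement, so that the search covered both strands. In H3 and L5 the assembled COMP transcript began 21 and 18 bases after the annotated start. The TNMD transcript began 73 bases before it in both pigs, so that the TNMD sequence stops there. E-boxes are in capitals.
COMP promoter (chr2:59061159-59061408, plus strand, Sscrofa11.1): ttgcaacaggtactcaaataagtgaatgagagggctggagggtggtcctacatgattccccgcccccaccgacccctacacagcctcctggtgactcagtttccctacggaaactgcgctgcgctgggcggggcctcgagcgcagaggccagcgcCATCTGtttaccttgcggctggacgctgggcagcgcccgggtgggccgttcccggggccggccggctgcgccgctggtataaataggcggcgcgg
TNMD promoter (chrX:82269073-82269249, plus strand, Sscrofa11.1): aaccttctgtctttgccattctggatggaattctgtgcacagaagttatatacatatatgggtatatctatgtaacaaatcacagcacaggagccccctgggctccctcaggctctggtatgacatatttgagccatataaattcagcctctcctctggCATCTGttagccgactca
Each printed sequence holds 1 E-box, and both read CATCTG. The full TNMD window of 250 bases held 2 E-boxes, 1 of them not in the printed part. The shares that follow are for full windows. An E-box is present in 65.6% of the 28214 promoters of this length that could be read, and CATCTG on either strand in 14.3%. Of the 35 promoters of the set, 25 hold an E-box. The matches are a description of the letters and do not show binding.

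Of the 8 elastic fibre and cross-linking genes, the mean was higher in H for 6 and lower for 2, and their log2 fold changes had a median of 0.43. FBLN5 encodes fibulin-5, which brings elastin and lysyl oxidase onto microfibrils. Its FPKM in H1 to H6 was 6.72, 4.56, 3.87, 6.45, 4.38 and 3.62, and in L1 to L6 it was 3.92, 2.51, 3.19, 3.42, 4.22 and 3.93. H1, H2, H4 and H5 were above every L pig, while H3 and H6 lay within the L range. The log2 fold change was 0.41 (95% interval 0.04 to 0.78, SE 0.17), with an unadjusted limma p of 0.0321, an adjusted p of 0.659 and an exact two-sided permutation p of 0.0368. This p is 1 of 33 read side by side, and it was above 0.05 when H1, H4, L2, L3 or L4 was left out (0.0763, 0.0748, 0.0736, 0.0561 and 0.051) and with FPKM as deposited, without scaling (0.0509). FBLN5 shares 87 exonic bases (3.05%) with TRIP11 on the same strand.

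ELN, encoding elastin itself, was 8.63 to 27.2 FPKM with a median of 17.0 in H, and 3.32 to 25.3 FPKM with a median of 10.4 in L. Its log2 fold change of 0.64 was the highest of the 33, with an SE of 0.44 (limma adjusted p = 0.774). Both H4 (27.2 FPKM) and L5 (25.3 FPKM) were high, and without L5 the value was 0.91 with an unadjusted p under 0.05. FBN1, encoding fibrillin-1 of the microfibrils, was 5.46 to 25.2 FPKM in H and 5.75 to 8.75 FPKM in L. H1, H3 and H4 were above all L pigs and the other 3 H pigs were at the level of L. FBN1 was assembled as 1 to 3 transcripts in a library, none with an annotated intron chain. ELN was assembled as 2 to 6, with 10.3% of its FPKM on annotated chains. The FPKM of both genes is a sum over such pieces. The log2 fold change of FBN1 was 0.48, and 0.37 with FPKM averaged over its annotated exons. MFAP4 and MFAP5, both microfibril-associated glycoproteins, and FBLN1 (fibulin-1) had log2 fold changes of 0.44 (SE 0.27), 0.21 (SE 0.19) and 0.58 (SE 0.36). The lysyl oxidases were near 0 on this scale, and their sign changed with single pigs left out. LOX was 7.49 FPKM in L5 and 0.792 to 4.27 FPKM elsewhere, with a log2 fold change of -0.07 (SE 0.43), and LOXL1 was 1.44 to 3.06 FPKM in the 12 pigs, with -0.02 (SE 0.19).

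Elastin and MFAP5 transcripts also differ by short exons. The share of FPKM with a 45-base exon of ELN was 74.8 ± 14.8% in H and 74.0 ± 13.2% in L (SD, n = 6 each, exact permutation p = 0.918). The share with a 45-base exon of MFAP5 was 86.6 ± 7.56% in H and 85.4 ± 7.69% in L (exact permutation p = 0.755). Of 58 exons skipped in some assembled transcript of the 35 genes, 22 exons of 6 genes could be tested, and 0 had an exact permutation p under 0.05 without adjustment. For some of them, both VCAN exons included, too few pigs departed from a constant share for any arrangement to fall under 0.05. Those tests cannot decide on a difference. The smallest p was 0.102, for 1 of the 273-base repeats of tenascin C, with shares of 39.9 ± 28.5% in H (n = 5) and 12.6 ± 19.7% in L (n = 6). Shares of assembled FPKM within a library do not depend on the scaling between libraries, but they depend on which transcripts Cufflinks put together.

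The fibroblast surface genes did not differ by group beyond the spread. THY1 (CD90), a membrane glycoprotein of fibroblasts, was 3.95 to 32.1 FPKM in H and 8.50 to 19.0 FPKM in L. PDGFRA, the receptor that marks the interstitial progenitors from which muscle fibroblasts and fat cells arise, was 1.74 to 4.2 FPKM in H and 1.40 to 2.69 FPKM in L. The log2 fold changes were -0.06 (SE 0.42) and 0.25 (SE 0.21), with limma adjusted p-values of 0.985 and 0.8. MMP2, the gelatinase that cuts denatured collagen, was 8.38 to 18.2 FPKM in H and 7.57 to 27.1 FPKM in L, with a log2 fold change of 0.00 (95% interval -0.70 to 0.70). TIMP3, the inhibitor that stays bound to the matrix, was the most even gene of the set, with a within-group SD of 0.25 on the log2 scale. It was 24.1 to 44.8 FPKM in H and 21.8 to 32.6 FPKM in L (log2 fold change 0.24, SE 0.15, limma adjusted p = 0.756).

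For 3 further genes, grouped after their values were seen, 2 other pigs were highest. SPP1 encodes osteopontin, a secreted glycoprotein that macrophages make in injured muscle. Its FPKM in H1 to H6 was 0.383, 0.398, 7.17, 0.656, 1.61 and 5.34, and in L1 to L6 it was 28.4, 0.339, 13.3, 1.25, 0.940 and 0.600. L1 and L3 were the highest, H3 and H6 came next, and the medians of the groups were alike at 1.13 FPKM in H and 1.10 FPKM in L. The means differed more, at 2.59 ± 2.93 FPKM in H and 7.47 ± 11.4 FPKM in L (SD, n = 6 each). The log2 fold change was -0.57 (SE 0.93, limma adjusted p = 0.905, exact permutation p = 0.582). It turned to 0.07 without L1, and to 0.77 without both L1 and L3. The study reported SPP1 as lower in H, by its own RNA sequencing analysis and by quantitative PCR on the same pigs. TNC, encoding tenascin C, which appears at sites of load and repair, was 22.2 FPKM in L1, 19.7 FPKM in L3 and 14.3 FPKM in H3, and 0.658 to 5.46 FPKM in the other 9 pigs. TIMP1, a soluble inhibitor of matrix proteases, was 31.4 FPKM in L1, 31.6 FPKM in L3 and 14.0 FPKM in H5, and 3.08 to 8.92 FPKM elsewhere. The pair L1 and L3 was highest for these 3 genes of 35, and for 3.00% of all genes tested. Over all genes tested L3 alone was highest for 14.7%, the largest share of any pig, and L1 for 5.89%. THBS1 had L3 but not L1 among its highest pigs.

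**Figure D3:**
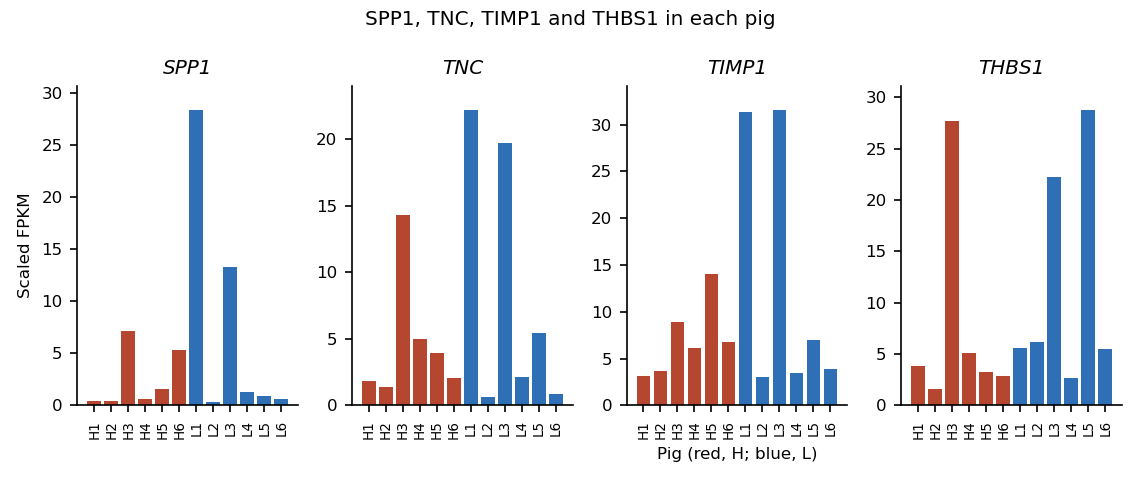
Scaled FPKM (y axis, from 0, own scale in each panel) of SPP1, TNC, TIMP1 and THBS1 in each of the 12 pigs (x axis, 1 bar per pig, red H and blue L). SPP1, TNC and TIMP1 have their tallest bars in L1 and L3, whereas THBS1 has them in L5 and H3 with L3 at 22.2 FPKM.

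The values of a list of 7 macrophage markers stood beside these as follows. Their summed FPKM was 48.6 in L1 and 39.5 in L3, the 2 highest L values, with 18.8 to 30.8 in the other L pigs and 27.0 to 43.4 in H. C1QA, C1QB and AIF1 had their highest value in L1, CD163 in H3, CSF1R in H4 and MRC1 in H1, and CD68 was listed at 0 in all pigs. H3 and H4, with sums of 43.4 and 43.1, had SPP1 at 7.17 and 0.656 FPKM. The part of macrophages in the SPP1 values was not tested. Without L1 and L3, a choice made after seeing the data, 0 members had an unadjusted p under 0.05. Of all 12416 genes tested, 423 were higher in H at this level and 375 lower. Without this pair the log2 fold changes of TNC and TIMP1 turned to 0.84 and 0.57.

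Taken gene by gene, the highest pig was H4 for 15 of the 35 genes, L5 for 10 and H3 for 5, and it was H1 or L1 for 2 each and L3 for 1. H3 and H4 were the 2 highest pigs for 7 genes (BGN, OGN, ASPN, THY1, FBLN1, LOXL1 and MFAP4), against 2.30% of all genes tested. Over all genes tested, which leave out SCX and MKX, H4, L5 and H3 were highest for 8.57%, 6.33% and 7.54%. The median deviation of the 33 tested genes from their own means was 0.74 in H4, 0.68 in H3 and 0.48 in L5 on the log2 scale, and -0.49 in H2, the lowest. The same median over all genes was between -0.03 and 0.00 in each pig. H4 was highest for DCN, LUM, FBN1, FN1, ELN, TNXB, TIMP3 and THY1 among others, while its tendon genes were listed at 0 or, for MKX, at 0.179 FPKM. H4 also had the most transcripts, and the highest ratio of coverage to FPKM for these genes (11.5, against 7.48 to 11.3 in the other pigs). L6, with a ratio of 11.3, was highest for 0 of the 35 genes, and its median deviation was -0.31. The summed FPKM of 8 fibroblast markers, among them DCN, LUM, THY1 and PDGFRA, was 615 in H4 and 235 to 479 elsewhere. That of 6 smooth muscle and pericyte markers was 207 in H4 and 65.6 to 135 elsewhere. The endothelial sum of H4, 48.6, was the lowest of the H pigs. The parts of depth and of the cell mixture in the values of H4 were not tested.

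**Figure D4:**
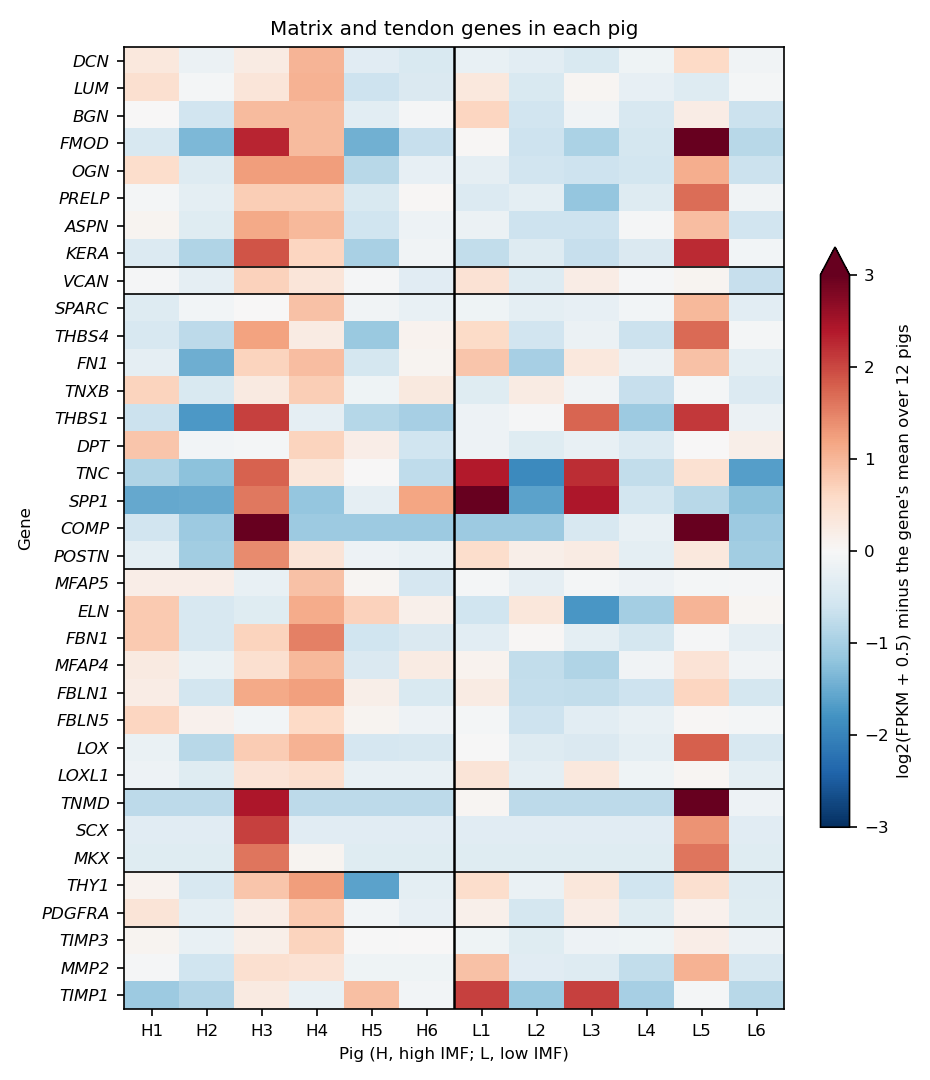
Log2(FPKM + 0.5) of the 35 genes (rows, grouped by role between black lines) in the 12 pigs (columns, H left and L right of the line), as the difference from each gene's mean over pigs, red above and blue below it. H4 is red in most matrix rows, H3 and L5 are deep red for COMP, TNMD, FMOD and KERA, and L1 and L3 are red for SPP1, TNC and TIMP1.

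The spread between pigs of 1 group was wide for these genes. The median SD of log2(FPKM + 0.5) within groups was 0.68 over the 33 genes and 0.39 over all genes tested, and 28 of the 33 lay above the latter. COMP (2.22), SPP1 (1.79) and FMOD (1.61) had the widest spread, above 98.9%, 98.1% and 97.5% of all genes tested. TIMP3, FBLN5, MFAP5, LOXL1 and PDGFRA were below the median of all genes. With such spreads the intervals of the group difference were wide: that of COMP ran from -2.73 to 2.27 and that of SPP1 from -2.59 to 1.45 on the log2 scale, while that of TIMP3 ran from -0.09 to 0.56.

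**Figure D5:**
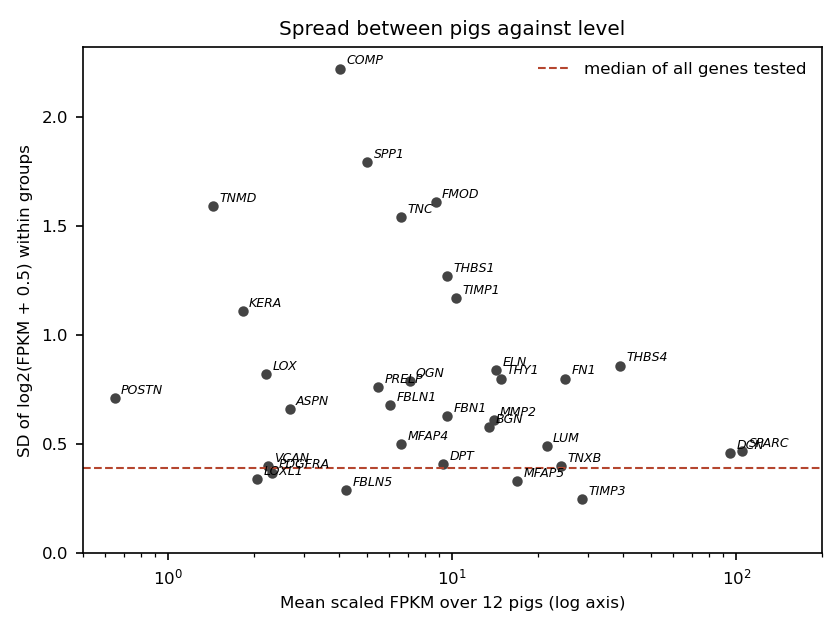
SD of log2(FPKM + 0.5) within groups (y axis, from 0) against mean scaled FPKM over 12 pigs (x axis, log scale) for the 33 genes tested, 1 point per gene, with the median SD of all genes tested as a dashed line at 0.39. COMP at 2.22 and SPP1 at 1.79 stand highest, and TIMP3 at 0.25 lowest.

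Further lists of matrix genes were read in the same fit, and no gene of them passed an adjusted p under 0.1. Their counts at an unadjusted p under 0.05 stand against 3.92% higher and 3.36% lower over all genes tested, and their counts of higher means against 50.5%. Of 9 collagens, 0 had an unadjusted p under 0.05, and COL15A1, a collagen next to basement membranes (log2 fold change 0.49, limma adjusted p = 0.69), and COL5A2, of the fibril core (0.35, limma adjusted p = 0.795), had the smallest. Of 11 basement membrane genes, 10 had a higher mean in H and 2 had an unadjusted p under 0.05, the nidogen gene NID2 (0.48, limma adjusted p = 0.681) and the heparan sulphate proteoglycan gene AGRN (0.54, limma adjusted p = 0.681). Of 13 matrix receptors 0 passed this level, with DDR2, a collagen receptor, at 0.31 and the syndecan gene SDC2 at -0.36. Of 15 TGF-beta signalling genes 1 was lower in H, CTGF, a matricellular target of the pathway (-0.98, limma adjusted p = 0.666), and TGFBR3 was next at 0.22. Of 19 matrix enzymes and inhibitors TIMP4 was higher in H (0.51, limma adjusted p = 0.573) and the lysyl oxidase LOXL4 lower (-0.84, limma adjusted p = 0.659). Of 25 further proteoglycans and glycoproteins 4 were higher and 1 lower, led by the matricellular CYR61 (-1.30, limma adjusted p = 0.573) and the fibulin EFEMP1 (0.84, limma adjusted p = 0.573). The adjusted p-values of all these genes were 0.573 or higher.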

How the data were processed

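RNA was sequenced as 76 bp pairs from 1 library per pig. Per the labels the authors used Trim Galore for trimming, TopHat2 2.1.0 for mapping on Sscrofa11.1 and Cufflinks 2.2.1 for assembly and quantification, 1 library at a time. What they deposited is transcripts with exons, coverage and FPKM, without gene names or scaling between libraries. Here each transcript was assigned to the RefSeq gene of Sscrofa11.1 on the same strand with most shared exonic bases (at least 50% of its bases if it had no strand). FPKM were summed per gene and scaled by median ratios, and a gene with no assigned transcript was set to 0. Genes whose mean reached 0.5 FPKM in a group were tested on log2(FPKM + 0.5), two-sided, with limma 3.58.1 (R 4.3.3, variance trend, Benjamini-Hochberg) and an exact permutation test (924 arrangements, smallest p 0.00216). A fold change on this scale understates that of low genes. Read counts were not used, since FPKM and coverage hold none, so that counting error is unknown. Limma and the permutation test were tested on simulated data. Exon shares are the FPKM of transcripts including an exon over that of including and skipping ones, with at least 4 pigs per group. The members and lists were chosen with earlier results of these data known. A 0 can be a locus that Cufflinks left out, or one whose transcripts were not assigned to the gene. Members named with all values are those with an unadjusted p under 0.05, the 3 with the highest mean and the 3 with the largest SD within groups, and of the other lists the 2 with the smallest p are named. Alternatives were other pseudocounts, filters, scalings and transcript sets, no variance trend, the individual number as a block, and pigs left out.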

Additional observations from a re-analysis of the deposited data

Results flagged for a closer look

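In 16 of the 70 groups of 6 pigs (22.9%) 1 pig stood apart from the other 5 of its group, with a gap to the nearest pig, as a share of the group's range, over Dixon's 95% limit. Chance flags about 1 in 20 groups, and over all genes tested 13% of groups were flagged. Among the 33 members tested, without SCX and MKX, it was 12 of 66 groups (18.2%). In the L group L5 was the highest pig each time, with a gap of 0.686 of the range for DCN, 0.785 for FMOD, 0.788 for OGN, 0.628 for PRELP, 0.778 for KERA, 0.813 for SPARC and 0.799 for LOX. L5 also stood apart for COMP (0.849), TNMD (0.819), SCX (1.0) and MKX (1.0). In the H group H3 stood apart for COMP (0.902), TNMD (1.0), SCX (1.0) and MKX (0.775). The remaining one was SPARC in H4 (0.693). A gap of 1.0 means that the other 5 pigs had the same value, here 0.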

How the results depend on the processing

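The results were recomputed under 26 alternatives. In each of them 0 members passed an adjusted p under 0.1, 0 had H and L values that did not overlap, and the median log2 fold change of the members stayed between 0.02 and 0.30. Of the 33 members tested, the direction held for 13 in every alternative that gave a value (ASPN, BGN, DPT, ELN, FBLN1, FBLN5, FBN1, LUM, MFAP4, OGN, PDGFRA, TIMP3 and TNXB) and turned in at least 1 for 20, of which 16 turned with a single pig left out. For 12 members at least 1 alternative gave no value, mostly annotated intron chains alone (FBN1, PDGFRA and TNXB among the 13). Of 845 recomputed member values 764 kept direction and side of the threshold. The cause of each change was not tested. Depth was not used as a weight, and the files hold no read counts per gene.

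With 1 pig left out, the genes called over all genes numbered 1 to 3. Members with an unadjusted p under 0.05 numbered 0 to 4 higher in H (4 without L5, namely ELN, FBLN1, FBLN5 and PRELP). They numbered 0 to 1 lower (THBS1 without H3). Without L5, 570 of the 12415 genes tested were higher in H at this level. Without H3, 426 of 12394 were lower. The log2 fold changes that turned ranged from -0.41 to 0.09 (FN1), -0.74 to 0.45 (FMOD), -0.33 to 0.49 (KERA), -0.00 to 0.22 (VCAN), -0.25 to 0.24 (POSTN), -0.15 to 0.22 (SPARC), -0.95 to 0.07 (SPP1), -0.32 to 0.26 (THY1), -0.28 to 0.29 (LOX), -0.12 to 0.06 (LOXL1), -0.65 to 0.21 (TNC), -1.11 to 0.69 (COMP), -0.55 to 0.03 (THBS4), -1.03 to 0.24 (TNMD), -0.62 to 0.01 (TIMP1) and -0.14 to 0.21 (MMP2). The difference in exon share (H minus L, percentage points) ranged from -11.6 to 0.9 for the long VCAN exon, -4.25 to 6 for ELN, -1.48 to 4.11 for MFAP5 and 19.8 to 37.2 for TNC.

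Genes called numbered 0 with a minimum mean of 1 FPKM, 2 without a variance trend, 4 without H3 and L5 and 3 without L1 and L3. Both of these pairs of pigs, and FPKM averaged over annotated exons, were chosen after seeing the data. Members with an unadjusted p under 0.05, higher in H, numbered 0 with FPKM as deposited, without H4 and L3 and without L1 and L3, and 2 with quantile normalization, without H3 and L5 and with FPKM averaged over the annotated exons. The genes with an unadjusted p under 0.05 in either direction, 903 of all genes tested, numbered 421 with annotated intron chains alone, where 8458 genes were tested. Log2 fold changes turned as follows. With FPKM as deposited MMP2 was -0.01, and with a pseudocount of 1 it was -0.00. With a pseudocount of 0.1 POSTN was -0.01. With quantile normalization KERA was -0.01, POSTN -0.03 and THY1 0.01. With annotated intron chains alone LOXL1 was 0.05, TNC 0.57, THBS1 0.27 and MFAP5 -0.61. With FPKM averaged over annotated exons FN1 was 0.12, SPARC -0.17 and MFAP5 -0.03. Without H3 and L5 POSTN was -0.18 and LOX 0.13. Without H4 and L3 DCN was -0.05, PRELP -0.09, KERA -0.22, SPARC -0.19, SPP1 0.03, TNC 0.08, TIMP1 0.02 and MMP2 -0.16. Without L1 and L3 FN1 was 0.05, PRELP -0.10, KERA -0.31, SPARC -0.06, SPP1 0.77, THY1 0.14, LOXL1 0.16, TNC 0.84 and TIMP1 0.57.

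Within each group the individual numbers 1 to 6 of the labels run in descending order of breeding value for IMF. It went from 3.48 (H1) to 2.78 (H6) and from -1.31 (L1) to -1.46 (L6). The numbers did not pair the pigs. Deviations of same-numbered pigs from their group means correlated at -0.0757 to 0.0593, and 1 of 6 H pigs was closest to its own number. With the number as a replicate block 0 genes were called, against 1 without it, and FBLN5 remained the one member with an unadjusted p under 0.05.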
